A study of Arabidopsis thaliana with 45 samples.

Results

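The jasmonate pathway was read in first true leaves of Arabidopsis thaliana through 10 genes that cover its synthesis (LOX2, AOS, OPR3), its transcription factor MYC2, its repressors (JAZ1, JAZ10), the enzymes that break the hormone down (CYP94B3, CYP94C1) and its storage protein outputs (VSP1, VSP2). The genes were chosen by name for their known roles, with earlier results of these data known, and all 10 were found among the 37336 genes of the table and passed the filter on low values that left 23493 genes. Polyadenylated RNA was sequenced in 45 libraries, 3 in each of 15 groups. Col-0, the standard laboratory strain, was grown in long days (16 h light, 8 h dark) or short days (8 h light, 16 h dark) and sampled at D13, D18, D23, D30 and D40 in each. The line labelled tcx5/6, in the Col-0 background, was grown in long days only, and its last sample was taken at D45 in place of D40. TCX5 and TCX6 encode CXC-domain proteins, and the labels give no alleles for the line. The day carries the unit DAG in the labels, and nothing states whether the 3 libraries of a group came from separate plants, so p-values measure the spread between libraries, which may be technical.

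Jasmonate is a lipid hormone made in plastids and peroxisomes after wounding, touch, insect attack and during leaf senescence. LOX2 acts in the chloroplast on linolenic acid, and AOS acts there on the product of the lipoxygenase step. OPR3 reduces a later product in the peroxisome. The amino acid conjugate jasmonoyl-isoleucine joins the receptor COI1 to JAZ repressors, which are then destroyed, and this frees MYC2 to switch on its targets. JAZ genes are themselves targets of MYC2, as is known from this species. CYP94B3 and CYP94C1 oxidise jasmonoyl-isoleucine and so end the signal. VSP1 and VSP2 encode vegetative storage proteins and are classical jasmonate markers in leaves.

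The genes lie on 4 of the nuclear chromosomes, given here in the TAIR10.1 assembly with RefSeq gene bounds. LOX2 (AT3G45140) is at chr3:16525245-16529352 on the plus strand, AOS (AT5G42650) at chr5:17097564-17099595 on the minus strand and OPR3 (AT2G06050) at chr2:2359114-2362375 on the minus strand. MYC2 (AT1G32640) is at chr1:11798119-11801407 on the minus strand, JAZ1 (AT1G19180) at chr1:6621777-6623668 and JAZ10 (AT5G13220) at chr5:4218786-4221077, both on the plus strand. CYP94B3 (AT3G48520) is at chr3:17974853-17976774 on the minus strand and CYP94C1 (AT2G27690) at chr2:11809279-11811280 on the plus strand. VSP1 (AT5G24780) at chr5:8507590-8509201 and VSP2 (AT5G24770) at chr5:8500468-8502224 are both on the minus strand. Values count reads over each gene's exons, and the labels do not name the build behind the counts.

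MYC2 binds the G-box (CACGTG) and the T/G-box (AACGTG, or CACGTT on the other strand). Both motifs have 6 letters and differ in their first or last letter, so no site counts as both. Within 1000 bases before the annotated start, the T/G-box was found in 8 of the 10 genes against 23.8% of 27443 promoters, and the G-box in 2 of the 10 against 14.8%. Within 250 bases the T/G-box was found in 2 of the 10 genes against 7.54% of promoters, and the G-box in 1 against 6.49%. No match was found within 1000 bases for CYP94C1 or VSP2. A match is a description of the letters and no measure of binding. All sites found for AOS and for the genes called higher at D40 than D13 in short days, as described below, are shown. They are given 5′ to 3′ on the gene's strand, read from the TAIR10.1 assembly with RefSeq gene starts, with the motif in capitals.
AOS, chr5:17099596-17099611, minus strand, first motif base 6 bases before the start: agagtcaaagCACGTG
AOS, chr5:17100533-17100558, minus strand, 953 bases before the start: ccattttaacAACGTGtgtgtttata
OPR3, chr2:2363133-2363158, minus strand, 773 bases before the start: tattttaaatCACGTTtggagtaaca
JAZ1, chr1:6620923-6620948, plus strand, 844 bases before the start: catgataaaaCACGTGtcatatcgaa
JAZ1, chr1:6620950-6620975, plus strand, 817 bases before the start: aggtacagacAACGTGcacttgccaa
JAZ1, chr1:6621049-6621074, plus strand, 718 bases before the start: taacaacaaaAACGTGgtcgacggaa
MYC2, chr1:11801507-11801532, minus strand, 115 bases before the start: agcaacgactCACGTTatatagatat
CYP94B3, chr3:17977404-17977429, minus strand, 645 bases before the start: ggagatatgcCACGTTctaaaacttt

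The 250 bases before the annotated start of MYC2 (chr1:11801408-11801657, minus strand) hold the T/G-box shown above and no G-box.
MYC2: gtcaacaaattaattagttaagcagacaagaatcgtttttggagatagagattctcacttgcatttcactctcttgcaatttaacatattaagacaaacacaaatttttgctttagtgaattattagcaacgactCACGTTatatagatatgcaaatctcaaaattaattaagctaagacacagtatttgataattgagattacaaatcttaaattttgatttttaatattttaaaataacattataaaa

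Values are normalised read counts, with 1 read worth 0.677 to 1.66 depending on the library, and 16824317 to 40252818 reads in genes per library. MYC2 has 98.5% of its exon length under the gene AT1G32630 on the opposite strand, and the value of AT1G32630 was 0.803 to 1.07 times that of MYC2 in the 45 libraries (median 0.928). The libraries are not stranded, so reads of the 2 genes cannot be told apart and every MYC2 value below holds for the pair. Of the wider genes named below, JR1, CHI-B, TCH2 and TCH3 also lie partly under genes on the opposite strand. The part was 23.8%, 33.1%, 20.9% and 20.2% of exon length. By the partners' mean values and the overlap, partner reads would come to 16.7%, 21.1%, 0.584% and 38.8% of the mean value. Changes given for these genes may therefore hold reads of their partners. VSP1 and VSP2 are neighbours on chromosome 5 with 88.1% identical transcripts over 1306 aligned bases and a longest identical run of 54 bases, so some of their reads may be shared. Within the short-day triplets the chi-square per degree of freedom was nearly the same for genes above 1000 reads as for genes with 20 to 100 (ratio 1.05 to 1.12), so the spread grew with the count as counting error does, while the ratio was 2.57 to 12.9 in long-day Col-0 and 1.55 to 4.40 in the line labelled tcx5/6. For genes with 20 to 100 reads the chi-square itself was 2.86 to 13.0 in short days. It was 2.13 to 8.81 in long-day Col-0 and 4.75 to 15.1 with the label tcx5/6. The short-day spread was thus larger than counting error alone gives. What the short-day libraries of a group were is not stated, so the fit was repeated with each short-day group counted as 1 library, and short-day calls lost in it are named. In that fit the spread is estimated only from the long-day libraries of Col-0 and of the line labelled tcx5/6. Its p-values therefore do not measure the spread among short-day samples, and a call kept there does not stand in for short-day replicates. The TCX5 level of the line labelled tcx5/6 overlapped that of long-day Col-0: it was 231 to 522 there and 271 to 525 in long-day Col-0, and TCX6 was 0 to 142 against 15.7 to 418. In short-day Col-0 TCX5 was 54.1 to 216 and TCX6 219 to 2200. Since no alleles are given, these levels cannot settle the genotype of the line. Comparisons below are therefore between libraries as labelled. Mesophyll genes were read in every library, and the summed level of the 4 markers was 2194173 to 2269706 at D13 and 23439 to 133143 at D40 in long-day Col-0. The summed level of the 5 flower markers was 9.29 to 238, and those of the 2 root and the 2 shoot meristem markers were at most 8.12 and 16.2. The 3 vasculature markers summed to 1694 to 17271, and at D13 to 9205 to 11295 in long-day Col-0, 3383 to 3489 in short days and 3493 to 3837 with the label tcx5/6. The mesophyll sum at D13 was 1153939 to 1186014 in short days and 1303210 to 1428053 with the label tcx5/6. On the last day it was 255766 to 271430 in short days (D40) and 126865 to 403749 with the label tcx5/6 (D45). The part of these markers in the values below was not tested.

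**Figure D1:**
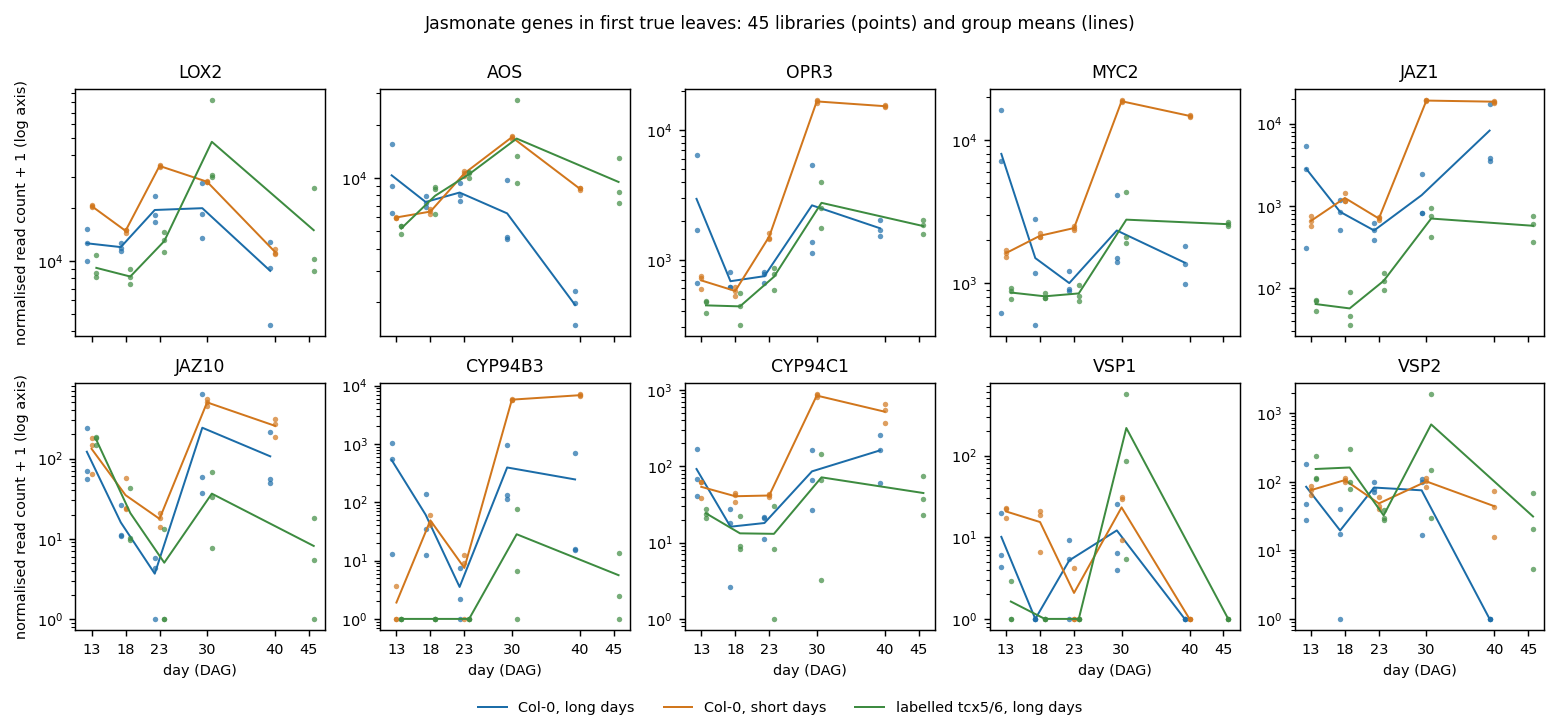
Normalised read count + 1 (log axis) of the 10 genes against the day (DAG). Points are the 45 libraries, lines join group means, and colours mark the 3 series, drawn slightly apart along the axis for legibility. OPR3, MYC2, JAZ1, CYP94B3 and CYP94C1 step up at D30 in short days and are called higher at D40 than D13. JAZ10 and VSP1 are also called higher at D30 than D23 there, but not at D40 than D13. The 3 long-day Col-0 libraries at D13 lie far apart for MYC2 (617 to 16193).

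Per kilobase of exon, LOX2 had the highest median of the 15 group means (4581 per kilobase) and AOS the next (4077 per kilobase). OPR3 and MYC2 followed with 884 and 653 per kilobase, and JAZ1 had 389. The median was 49.1 per kilobase for VSP2, 21.8 for CYP94C1, 16.0 for JAZ10, 14.2 for CYP94B3 and 0.807 for VSP1. Ordered by their means, neighbouring groups mostly overlapped: of the 14 neighbour pairs, the libraries lay apart in 5 for OPR3, in 3 each for LOX2, AOS, JAZ1, MYC2 and CYP94C1, in 2 for CYP94B3, in 1 for JAZ10 and in 0 for VSP1 and VSP2.

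With age in short days, 5 of the 10 genes rose between D13 and D40 (OPR3, JAZ1, MYC2, CYP94B3, CYP94C1) and 2 fell (LOX2, VSP1). A call is an adjusted p under 0.05 from limma over all genes tested. Over those genes, 34.0% were called higher and 36.5% lower in the same comparison, so 7 called genes of 10 is about what the background gives. Folds in the text are ratios of group means, while log2 differences are differences of the mean log2(value + 1), so they need not match. At D30 against D23, 7 of the 10 genes rose (OPR3, JAZ1, JAZ10, MYC2, VSP1, CYP94B3, CYP94C1) and 0 fell, against a background of 14.9% called higher and 10.6% lower. The median log2 difference of the 10 genes in that step was 3.56, and that of all genes tested was 0.00. With each short-day group counted as 1 library, OPR3, JAZ1, MYC2 and CYP94B3 kept the call over D13 to D40, and OPR3, JAZ1 and CYP94B3 kept it in the step.

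In long-day Col-0, 1 gene rose between D13 and D40 (JAZ1) and 4 fell (AOS, MYC2, VSP1, VSP2), with 34.0% of all genes called higher and 35.8% lower. In the libraries labelled tcx5/6, 4 genes rose between D13 and D45 (AOS, OPR3, JAZ1, MYC2) and 2 fell (JAZ10, VSP2), with 30.1% called higher and 33.9% lower. Here too the counts of 5 and 6 called genes are no more than the background gives. Of the shorter steps in long-day Col-0, 0 genes rose and 3 fell at D18 (5.10% and 4.59% of all genes), 1 rose and 0 fell at D23 (5.46% and 5.70%), 3 rose and 0 fell at D30 (19.6% and 21.8%), and 1 rose and 4 fell at D40 (24.9% and 27.8%). Those in short days had 1 and 0 at D18 (16.8% and 14.5%), 3 and 1 at D23 (13.1% and 16.7%) and 0 and 3 at D40 (17.9% and 20.4%), of which 0 calls were kept with each short-day group as 1 library. Under the label tcx5/6 they were 0 and 1 at D18 (17.8% and 21.8%), 0 and 1 at D23 (12.9% and 8.67%), 6 and 0 at D30 (13.4% and 14.0%), and 0 and 3 at D45 (9.49% and 13.6%).

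**Figure D2:**
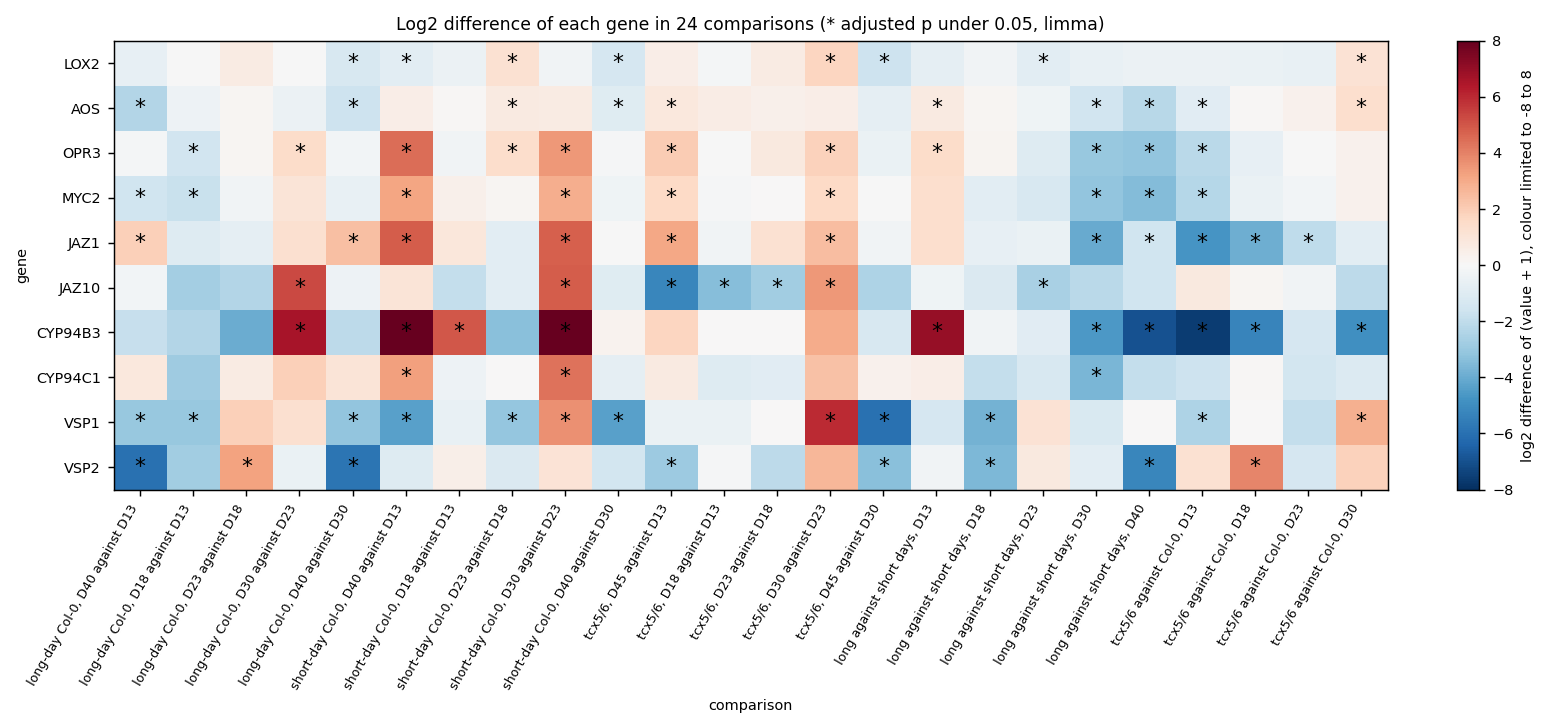
Log2 difference of (value + 1) for the 10 genes (vertical axis) in 24 comparisons (horizontal axis). Colour gives the size, limited to -8 to 8, and an asterisk marks an adjusted p under 0.05. The short-day column for D30 against D23 holds 7 calls, all higher, and the tcx5/6 column against Col-0 at D13 holds 6, all lower.

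Synthesis genes differed from each other in their course. OPR3, the peroxisomal reductase, was 755, 722 and 599 in the 3 short-day libraries at D13, 1606, 1470 and 1447 at D23, 16311, 16817 and 17056 at D30 and 15363, 15067 and 15679 at D40. All 6 short-day libraries of D30 and D40 lay above the other 39 libraries, of which the highest had 6490. The D40 level was 22.2 times that of D13 (log2 difference 4.48 ± 0.44 SE, limma adjusted p = 4.3e-11), and the step from D23 to D30 was 11.1-fold (log2 3.47 ± 0.44, limma adjusted p = 1.24e-07). Counted as 1 library per group, these were limma adjusted p = 0.00039 and 0.0316. A smaller rise came from D18 to D23 (2.63-fold, limma adjusted p = 0.0147; 0.553 as 1 library).

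In long-day Col-0 the OPR3 values were 6490, 1708 and 666 at D13 and 806, 621 and 619 at D18. They were 659, 800 and 779 at D23, 1369, 5411 and 1119 at D30 and 1708, 1529 and 2019 at D40. Replicate 1 of D13 and replicate 2 of D30 stood well above the other libraries of their groups. OPR3 fell from D13 to D18 (log2 -1.52 ± 0.44, limma adjusted p = 0.0225), but without D13 replicate 1 the log2 difference was -0.66 (adjusted p = 0.41), without D18 replicate 1 or 3 the adjusted p was 0.0602 or 0.075, and without D13 replicate 3 the difference was -2.30. It rose from D23 to D30 (log2 1.44 ± 0.44, limma adjusted p = 0.0082), with 0.73 (adjusted p = 0.18) without D30 replicate 2. In the libraries labelled tcx5/6 OPR3 was 385 to 477 at D13, 1763 to 3997 at D30 and 1571 to 2020 at D45, and it rose 4.10-fold from D13 to D45 (log2 2.03 ± 0.44, limma adjusted p = 0.00013) and 3.73-fold from D23 to D30 (limma adjusted p = 0.0018).

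AOS, the allene oxide synthase of the chloroplast, fell with age in long-day Col-0 and rose in the libraries labelled tcx5/6. Its long-day Col-0 values were 15651, 9045 and 6369 at D13, 4660, 9796 and 4510 at D30, and 1488, 2317 and 1974 at D40, where all 3 libraries lay below the D13 range. The fall was 5.38-fold (log2 -2.35 ± 0.27, limma adjusted p = 1.84e-09), and 3.28-fold of it lay between D30 and D40 (log2 -1.64 ± 0.27, limma adjusted p = 4.75e-06). In short days AOS was 5998 ± 47.3 (SD, n = 3) at D13, 6472 ± 204 at D18, 10625 ± 315 at D23, 16990 ± 258 at D30 and 8704 ± 99.7 at D40. It was called higher at D23 than D18 (log2 0.72 ± 0.27, limma adjusted p = 0.046; 0.0825 to 0.108 without any 1 of the 6 libraries, 0.666 with each short-day group as 1 library) and lower at D40 than D30 (1.95-fold, limma adjusted p = 0.0054; 0.397 with each short-day group as 1 library).

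In the libraries labelled tcx5/6 AOS was 5360, 4856 and 5366 at D13, 27411, 9322 and 13329 at D30, and 8329, 7221 and 12962 at D45. The D45 level was 1.83 times that of D13 (log2 0.83 ± 0.27, limma adjusted p = 0.0088), and 0.58 (adjusted p = 0.088) without D45 replicate 3. No long-day Col-0 group was sampled at D45, and beside the D45 values stand 1488 to 2317 in long-day Col-0 at D40, with no test.

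LOX2, the chloroplast lipoxygenase, was 20608 ± 370 (SD, n = 3) in short days at D13, 14897 ± 365 at D18, 34836 ± 357 at D23 and 11303 ± 394 at D40. The last was 1.82-fold below D13 (log2 -0.87 ± 0.32, limma adjusted p = 0.0167; 0.312 with each short-day group as 1 library). In between it rose 2.34-fold from D18 to D23 (limma adjusted p = 0.0034) and fell 2.51-fold from D30 to D40 (limma adjusted p = 0.0013), with adjusted p = 0.423 and 0.299 as 1 library. In long-day Col-0 it fell 2.27-fold from D30 to D40 (20038 ± 7323 to 8816 ± 4294, log2 -1.26 ± 0.32, limma adjusted p = 0.0012), with a log2 difference of -0.82 (adjusted p = 0.0358) without D40 replicate 1. In the libraries labelled tcx5/6 the 3 values were 13235, 11234 and 14590 at D23, 82270, 30818 and 30288 at D30, and 8785, 10342 and 25940 at D45. LOX2 rose 3.67-fold from D23 to D30 there (log2 1.72 ± 0.32, limma adjusted p = 0.00011) and fell 3.18-fold by D45 (log2 -1.68 ± 0.32, limma adjusted p = 0.00018). Without D30 replicate 1 these were 2.35-fold and 2.03-fold, and the fall had a log2 difference of -2.16 without D45 replicate 3. With only the compared groups in the fit both calls were lost (adjusted p = 0.061 and 0.171).

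MYC2, the basic helix-loop-helix activator of the pathway, was 1721, 1536 and 1623 in short days at D13, 2426, 2495 and 2371 at D23, 18510, 18386 and 18857 at D30, and 14426, 14767 and 14887 at D40. The 3 libraries of each day lay close together, and D30 and D40 stood far above the earlier days. MYC2 with its overlapping partner rose 9.03-fold from D13 to D40 (log2 3.18 ± 0.59, limma adjusted p = 1.14e-05; 0.0384 with each short-day group as 1 library) and 7.65-fold from D23 to D30 (log2 2.93 ± 0.59, limma adjusted p = 0.00018; 0.245 as 1 library).

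In long-day Col-0 the MYC2 values at D13 were 16193, 7151 and 617. They were 514, 2817 and 1173 at D18, 1217, 912 and 887 at D23, 1514, 4099 and 1399 at D30, and 991, 1368 and 1826 at D40. MYC2 was called lower at D40 than at D13 (log2 -1.62 ± 0.59, limma adjusted p = 0.0143). The difference was -0.64 (adjusted p = 0.312) without D13 replicate 1 and -2.99 (adjusted p = 6.05e-08) without D13 replicate 3, and the adjusted p was 0.0947 without D13 replicate 2 and 0.0605 without D40 replicate 1. The call at D18 against D13 (log2 -1.80 ± 0.59, limma adjusted p = 0.0445) was lost without D13 replicate 1 (-0.82, adjusted p = 0.515), D13 replicate 2 (adjusted p = 0.226), D18 replicate 1 (-1.19, adjusted p = 0.406) or D18 replicate 3 (adjusted p = 0.106), and the difference was -3.17 without D13 replicate 3. In the libraries labelled tcx5/6 MYC2 was 782 to 923 at D13, 1922 to 4306 at D30 and 2514 to 2667 at D45, and it rose 2.99-fold from D13 to D45 (log2 1.58 ± 0.59, limma adjusted p = 0.018). Its rise from D23 to D30 (3.27-fold, limma adjusted p = 0.0364) was lost without D23 replicate 1, 2 or 3 (adjusted p = 0.081, 0.0917 and 0.0592) or D30 replicate 1 or 2 (0.168 and 0.055).

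**Figure D3:**
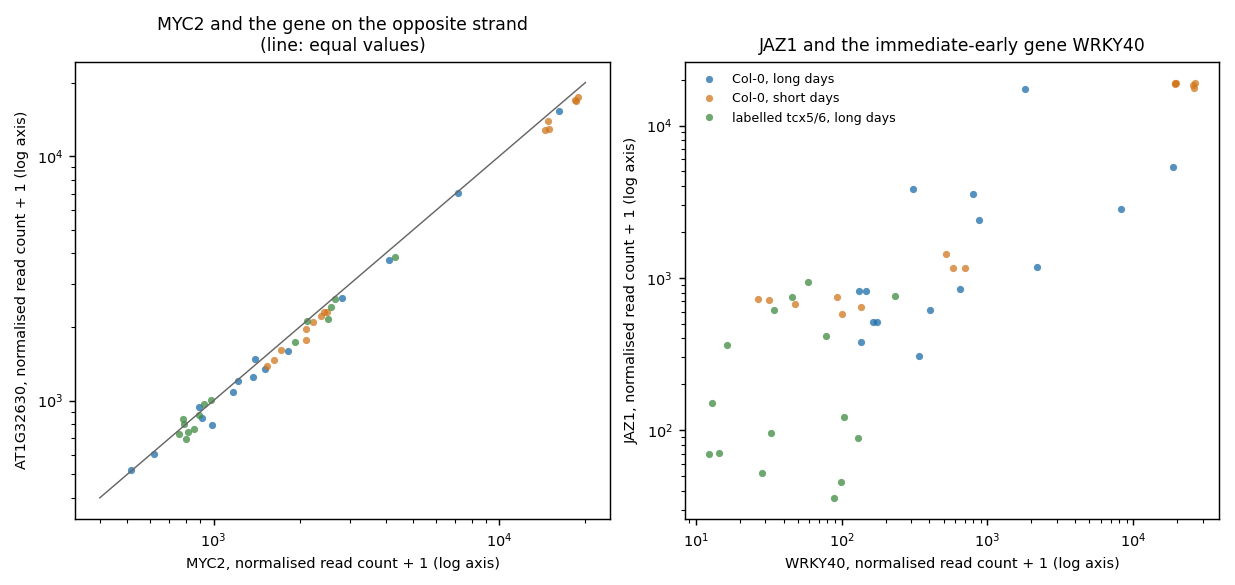
Left, normalised read count + 1 of AT1G32630 against MYC2 in the 45 libraries (log axes, grey line of equal values): the ratio was 0.803 to 1.07. Right, JAZ1 against the touch-induced gene WRKY40 in the same libraries (log axes): the 6 short-day libraries of D30 and D40 lie at the upper right, and most libraries labelled tcx5/6 at the lower left.

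JAZ1, a repressor that binds MYC2, was 646, 749 and 574 in short days at D13, 725, 668 and 709 at D23, 18807, 19145 and 19083 at D30, and 19038, 18515 and 17726 at D40. Their 6 late libraries lay above the other 39, of which the highest, long-day Col-0 D40 replicate 1, had 17265. JAZ1 rose 28.1-fold from D13 to D40 (log2 4.82 ± 0.59, limma adjusted p = 5.14e-09) and 27.1-fold from D23 to D30 (log2 4.76 ± 0.59, limma adjusted p = 6.6e-08), with adjusted p = 0.00266 and 0.026 when each short-day group was 1 library.

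In long-day Col-0, JAZ1 was 5329, 2844 and 305 at D13, 613, 379 and 513 at D23, 818, 2409 and 819 at D30, and 17265, 3850 and 3524 at D40. The D40 libraries all lay above D30, and they overlapped D13. JAZ1 rose 6.09-fold from D30 to D40 (log2 2.39 ± 0.59, limma adjusted p = 0.00079), 2.73-fold without D40 replicate 1 (log2 2.91 without D30 replicate 2), and the call was lost with only the compared groups in the fit (adjusted p = 0.063). The rise over D13 (log2 1.89 ± 0.59, limma adjusted p = 0.0047) was 0.66 (adjusted p = 0.217) without D13 replicate 3 and 1.14 (adjusted p = 0.0918) without D40 replicate 1. In the line labelled tcx5/6 JAZ1 was 70.0, 51.2 and 68.5 at D13, 94.3, 151 and 120 at D23, 932, 757 and 414 at D30 and 743, 610 and 364 at D45. It rose 9.05-fold from D13 to D45 (log2 3.11 ± 0.59, limma adjusted p = 1.84e-05) and 5.76-fold from D23 to D30 (log2 2.46 ± 0.59, limma adjusted p = 0.0016).

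JAZ10, a repressor whose splice forms dampen the response, went in short days from 19.9, 17.2 and 13.0 at D23 to 507, 450 and 544 at D30, a 30.0-fold rise (log2 4.84 ± 0.99, limma adjusted p = 0.00026; 0.245 with each short-day group as 1 library). In long-day Col-0 it was 0, 4.71 and 3.28 at D23, which is 7 reads in all, and 57.4, 630 and 36.0 at D30 (log2 5.25 ± 0.99, limma adjusted p = 5.37e-05). In the line labelled tcx5/6 it went from 147, 185 and 178 at D13 to 8.51, 42.0 and 9.18 at D18 (log2 -3.40 ± 0.99, limma adjusted p = 0.0062) and to 17.0, 0 and 4.38 at D45 (log2 -5.21 ± 0.99, limma adjusted p = 2.16e-05). The fall to D18 was 8.54-fold, and 19.2-fold without D18 replicate 2. The intermediate calls, lower at D23 than D18 (limma adjusted p = 0.0416) and higher at D30 than D23 (limma adjusted p = 0.00828), rest on 11 reads at D23. The first was lost without D18 replicate 2 (adjusted p = 0.211) or D23 replicate 2 or 3 (0.185 and 0.184), and the second without D23 replicate 2 or 3 (0.0581 and 0.0603) or D30 replicate 1 (0.0644). At D13 JAZ10 was 54.0 to 239 in long-day Col-0 beside 147 to 185 with the label tcx5/6, and was not called between them.

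CYP94B3, which hydroxylates jasmonoyl-isoleucine, ranged from 0 to 7094 over the 45 libraries. In short days it was 2.72, 0 and 0 at D13, which is 4 reads in all, then 40.6, 43.0 and 60.3 at D18, 11.4, 0 and 8.10 at D23, 5785, 5809 and 5684 at D30, and 6705, 6804 and 7094 at D40. All 6 late short-day libraries lay above the other 39, of which the highest had 1031. The log2 difference from D13 to D40 was 12.11 ± 1.38 (limma adjusted p = 1.28e-09) and from D23 to D30 10.22 ± 1.38 (limma adjusted p = 3.98e-07). Counted as 1 library per group these were adjusted p = 0.00118 and 0.0488. The smaller rise from D13 to D18 (log2 4.96 ± 1.38, limma adjusted p = 0.00534) starts from those 4 reads and had adjusted p = 0.439 in that setting.

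In long-day Col-0 CYP94B3 was 1031, 546 and 12.2 at D13, 6.42, 1.18 and 0 at D23, 130, 943 and 111 at D30, and 708, 14.7 and 14.3 at D40. D13 replicate 1 and D30 replicate 2, high for OPR3, were high here too, and of the steps between days only the step from D23 to D30 was called (log2 6.57 ± 1.38, limma adjusted p = 0.00022). Under the label tcx5/6 it was 0 in all 9 libraries of D13, D18 and D23, then 76.4, 5.59 and 0 at D30 and 12.4, 1.51 and 0 at D45, with no call between days.

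CYP94C1, which oxidises the hydroxylated product further, was 36.8, 60.4 and 60.9 in short days at D13, 38.4, 40.5 and 42.1 at D23, 873, 853 and 800 at D30, and 362, 644 and 545 at D40. Its 6 late short-day libraries also lay above the other 39, of which the highest had 258. The rise was 20.9-fold from D23 to D30 (log2 4.35 ± 0.98, limma adjusted p = 0.00077) and 9.81-fold from D13 to D40 (log2 3.27 ± 0.98, limma adjusted p = 0.0034). With each short-day group as 1 library the adjusted p was 0.335 and 0.199. No other comparison between days was called for CYP94C1.

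VSP1 and VSP2, the storage protein markers, did not share the short-day rise of OPR3, JAZ1, MYC2, CYP94B3 and CYP94C1 from D13 to D40. VSP1 was called higher at D30 than D23 there, as these genes were. VSP2 was 45.6, 26.6 and 178 in long-day Col-0 at D13, 107, 98.9 and 16.0 at D30, and 0 in all 3 libraries at D40, at least 62.3-fold lower than D13 against a floor of 3 reads over the group (limma adjusted p = 5.18e-06; at least 27.0-fold without D13 replicate 3). In short days it was 14.9 to 72.0 at D40 and 62.7 to 85.7 at D13, with no call. With the label tcx5/6 it was 1878, 145 and 28.8 at D30, and 66.5, 19.6 and 4.38 at D45. VSP2 was called lower at D45 than D13 (log2 -2.88 ± 1.05, limma adjusted p = 0.016; 0.0632 without D13 replicate 3, 0.134 without D45 replicate 3). It was also lower at D45 than D30 (log2 -3.37 ± 1.05, limma adjusted p = 0.0168), but without D30 replicate 1 the difference was -1.76 (adjusted p = 0.26) and without D45 replicate 3 the adjusted p was 0.119. The long-day Col-0 rise from D18 (0, 39.3 and 16.1) to D23 (70.7, 96.6 and 76.6) had limma adjusted p = 0.0398. It was 1.64 (adjusted p = 0.426) against 3.21 on the log2 scale without D18 replicate 1, and was lost without D23 replicate 1, 2 or 3 (0.0854, 0.117 and 0.0958).

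VSP1 was below 30 in every Col-0 library and at 0 in all 3 libraries of D40 in both day lengths. It was at least 24.7-fold lower at D40 than at D13 in short days (limma adjusted p = 0.00013; 0.0544 with each short-day group as 1 library) and at least 6.79-fold lower in long days (limma adjusted p = 0.0056; at least 3.13-fold without D13 replicate 3). With the label tcx5/6 it was 560, 84.6 and 4.43 at D30, 0 in all 3 libraries at D18, D23 and D45, and 2 reads in all at D13. Replicate 1 of that group was the highest of the 3 for all 10 genes. The step from D23 to D30 was called for VSP1 (at least 230-fold against a floor of 3 reads, limma adjusted p = 1.15e-05). It was at least 47.4-fold without D30 replicate 1, and the call was lost with only the compared groups in the fit (adjusted p = 0.0791). VSP1 in long-day Col-0 was also 0 at D18, and the call there against D13 (limma adjusted p = 0.0393) was lost without D13 replicate 1 or 3 (adjusted p = 0.0825 and 0.179) or any D18 library (0.0626 to 0.139). Lower at D40 than D30 (limma adjusted p = 0.00607), it had adjusted p = 0.0601 without D30 replicate 1. The short-day values of VSP1 were 19.8, 5.57 and 17.6 at D18, 0, 0 and 3.24 at D23, which is 4 reads in all, and 29.9, 28.2 and 8.35 at D30. The fall to D23 (limma adjusted p = 0.013) was lost without D18 replicate 1 or 3 (adjusted p = 0.058 and 0.0509) or D23 replicate 1 or 2 (0.0615 and 0.0617) and with each short-day group as 1 library (0.52).

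The short days stood above the long days from D30 on. At D30, 6 of the 10 genes were lower in long than in short days (AOS, OPR3, JAZ1, MYC2, CYP94B3, CYP94C1) and 0 higher, against 21.0% of all genes called lower and 15.6% higher. At D40 it was again 6 (AOS, OPR3, JAZ1, MYC2, VSP2, CYP94B3), against 29.1% lower and 21.2% higher. OPR3 was 6.35-fold higher in short days at D30 (log2 difference, long minus short, -3.05 ± 0.44, limma adjusted p = 1e-06) and 8.77-fold at D40. MYC2 was 7.95-fold higher at D30 and 10.5-fold at D40 (log2 -3.44 ± 0.59, limma adjusted p = 7.27e-06). Without long-day D30 replicate 2 the D30 folds were 13.4 for OPR3 and 12.8 for MYC2. At D13 the sign differed: AOS, OPR3 and CYP94B3 were higher in long days and 0 genes lower, against 19.5% of all genes called higher and 20.6% lower, with CYP94B3 at 12.2 to 1031 in long days beside 0 to 2.72 in short days (log2 6.98 ± 1.38, limma adjusted p = 9.74e-05). Of those D13 calls, AOS (log2 0.34, adjusted p = 0.386) and OPR3 (0.63, adjusted p = 0.204) were lost without long-day D13 replicate 1. AOS was lost also without long-day D13 replicate 2 (adjusted p = 0.066) or short-day D13 replicate 1, 2 or 3 (0.089, 0.084 and 0.0869), and OPR3 was 2.27 without long-day D13 replicate 3. Both lost the call with each short-day group as 1 library (0.352 and 0.183), as CYP94B3 and CYP94C1 did at D30 (0.186 and 0.148). JAZ1 at D40 was lost without long-day D40 replicate 2 or 3 (adjusted p = 0.116 and 0.132) or short-day D40 replicate 1 or 2 (0.054 and 0.0501) and with each short-day group as 1 library (0.251).

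Between D13 and D30 the day lengths differed in few of the genes. At D18 VSP1 and VSP2 were lower in long days and 0 genes were higher (15.7% and 13.9% of all genes), VSP1 at 0 beside 5.57 to 19.8 (limma adjusted p = 0.00255) and VSP2 at 0 to 39.3 beside 98.4 to 111 (limma adjusted p = 0.00824; log2 -2.01 without long-day D18 replicate 1 against -3.58, adjusted p = 0.154). At D23 LOX2 (1.78-fold, limma adjusted p = 0.0361) and JAZ10 (6.27-fold, limma adjusted p = 0.0378; 10.2-fold without long-day D23 replicate 2) were lower in long days and 0 were higher (18.1% and 19.5% of all genes). LOX2 lost the call without long-day D23 replicate 2 or 3 (adjusted p = 0.0884 and 0.122) or any short-day D23 library (0.0719 to 0.0771), and JAZ10 without long-day D23 replicate 1 (0.212) or any short-day D23 library (0.0597 to 0.0945). With each short-day group as 1 library these 4 calls were lost (adjusted p = 0.106 to 0.344).

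The change from D13 to D40 itself differed between day lengths for 6 genes, all lower in long days, against 25.4% of all genes called lower and 20.4% higher. The difference of the log2 changes was -4.64 ± 0.62 for OPR3 (limma adjusted p = 1.68e-07), -4.79 ± 0.83 for MYC2 (limma adjusted p = 1.2e-05), -2.89 ± 0.39 for AOS (limma adjusted p = 1.66e-07) and -13.93 ± 1.96 for CYP94B3 (limma adjusted p = 3.67e-07). These 4 kept the call with each short-day group as 1 library, and JAZ1 and VSP2 did not (adjusted p = 0.148 and 0.14).

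At D13 the libraries labelled tcx5/6 were lower than long-day Col-0 for 6 of the 10 genes (AOS, OPR3, JAZ1, MYC2, VSP1, CYP94B3) and higher for 0, against 23.4% of all genes called lower and 20.1% higher. JAZ1 was 51.2 to 70.0 beside 305 to 5329 in Col-0, 44.7-fold lower by the ratio of means (24.9-fold without Col-0 D13 replicate 1), with a difference of mean log2 values of -4.71 ± 0.59 (limma adjusted p = 2.41e-08). It was lower also at D18 (15.1-fold, limma adjusted p = 8.12e-07) and D23 (4.12-fold, limma adjusted p = 0.0092). CYP94B3 was at 0 beside 12.2 to 1031, at least 497-fold lower (limma adjusted p = 2.16e-05; 262-fold without Col-0 D13 replicate 1), and at D18 at least 60.8-fold lower (limma adjusted p = 0.0018; 23.0-fold without Col-0 D18 replicate 2). OPR3 was 6.66-fold lower (log2 -2.14 ± 0.44, limma adjusted p = 0.00013), and 2.68-fold (log2 -1.27, adjusted p = 0.0066) without Col-0 D13 replicate 1. Without that library MYC2 (-1.29, adjusted p = 0.0617) and AOS (-0.55, adjusted p = 0.126) lost the call. The MYC2 difference was -3.64 without Col-0 D13 replicate 3, and VSP1 lost the call without that replicate (adjusted p = 0.175) or without tcx5/6 D13 replicate 1 or 3 (0.101 each).

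At D18 VSP2 was higher with the label tcx5/6 (78.1 to 304 beside 0 to 39.3, log2 3.92 ± 1.05, limma adjusted p = 0.0021; 2.35 and adjusted p = 0.0611 without Col-0 D18 replicate 1) and JAZ1 and CYP94B3 were lower, against 1 gene, JAZ1, lower at D23 and 0 higher. The VSP2 ratio of means was 8.69, with 4.80 without tcx5/6 D18 replicate 2 and 19.9 without Col-0 D18 replicate 2. That tcx5/6 library had 18702 genes with a read, beside 21273 and 21177 in replicates 1 and 3. Its vasculature sum was 1694, beside 7901 and 7042. Of all genes, 20.5% were called higher and 27.1% lower at D18, and 10.3% and 14.5% at D23.

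At D30 LOX2, AOS and VSP1 were higher in the libraries labelled tcx5/6 (16.6% of all genes called higher) and CYP94B3 was lower (18.5% called lower). AOS was 2.64-fold higher (log2 1.35 ± 0.27, limma adjusted p = 0.00016), a call lost with only the compared groups in the fit (adjusted p = 0.104). LOX2 (log2 1.15 ± 0.32, limma adjusted p = 0.0047) was 0.67 (adjusted p = 0.113) without tcx5/6 D30 replicate 1 and had adjusted p = 0.0518 without Col-0 D30 replicate 3. VSP1 (log2 2.87 ± 0.96, limma adjusted p = 0.0174) was 0.453 times that size (adjusted p = 0.311) without tcx5/6 D30 replicate 1 and 4.65 without replicate 3, and it lost the call without tcx5/6 D30 replicate 2 (adjusted p = 0.0557) or Col-0 D30 replicate 2 or 3 (0.0621 and 0.104). CYP94B3 (log2 -4.91 ± 1.38, limma adjusted p = 0.0049) had adjusted p = 0.0747 without tcx5/6 D30 replicate 3. The change from D13 to D30 was larger in the libraries labelled tcx5/6 for 6 genes and smaller for 0 (LOX2, AOS, OPR3, JAZ1, MYC2, VSP1), against 13.3% and 10.9% of all genes. The difference was 3.89 ± 0.83 for JAZ1 (limma adjusted p = 0.0005) and 2.25 ± 0.39 for AOS (limma adjusted p = 3.16e-05). Without Col-0 D13 replicate 1 that of OPR3 was 1.63 in place of 2.50 (adjusted p = 0.0171) and that of MYC2 1.62 in place of 2.60 (adjusted p = 0.118). MYC2 lost the call also without Col-0 D13 replicate 2 (0.0669), Col-0 D30 replicate 3 (0.0556) or tcx5/6 D30 replicate 1 (0.0631), and had 3.98 without Col-0 D13 replicate 3. LOX2 had adjusted p = 0.0542 without tcx5/6 D30 replicate 1. Since these differences use the same Col-0 D13 libraries as the D13 comparison, the 2 sets of calls are not independent.

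The limma fit takes 1 estimate of spread from all 15 groups, and further calls ended with only the compared groups in the fit. In long-day Col-0 these were JAZ1 and MYC2 at D40 against D13 (adjusted p = 0.231 and 0.293), OPR3, MYC2 and VSP1 at D18 (0.347, 0.49 and 0.0942), VSP2 at D23 (0.228), OPR3 at D30 (0.0995) and LOX2 at D40 against D30 (0.101). With the label tcx5/6 they were VSP2 at D45 against D13 (0.0516), JAZ10 at D23 and D30 (0.277 and 0.161), and VSP1 and VSP2 at D45 against D30 (0.109 and 0.298). Between day lengths they were AOS and OPR3 at D13 (0.148 and 0.201), VSP2 at D18 (0.115), JAZ1 at D40 (0.148) and JAZ1 for the age change (0.0893). Between the line labelled tcx5/6 and Col-0 they were AOS, OPR3 and MYC2 at D13 (0.0837, 0.0961 and 0.201), VSP2 at D18 (0.124), LOX2, VSP1 and CYP94B3 at D30 (0.147, 0.292 and 0.0961), and OPR3, MYC2 and VSP1 for the change to D30 (0.118, 0.185 and 0.0743).

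The genes of few reads were the ones that lost calls with a pseudocount of 5, namely VSP1 at D18 and D40 in long-day Col-0 (adjusted p = 0.0808 to 0.25), at D23 in short days (0.074) and against Col-0 at D13 (0.176), VSP2 at D23 in long-day Col-0 (0.0716) and for the age change (0.0578), and JAZ10 at D23 with the label tcx5/6 (0.159) and between day lengths (0.0963). The edgeR test on recovered reads did not call 8 of the differences, VSP1 at D18 in long-day Col-0, at D23 in short days and against Col-0 at D13, VSP2 at D23 in long-day Col-0 and between day lengths at D18, JAZ10 at D23 in both comparisons just named, and JAZ1 between day lengths at D40 (adjusted p = 0.0567 to 0.2). AOS between day lengths at D13 had adjusted p = 0.671 with quantile scaling and 0.053 with TMM scaling, AOS against Col-0 at D13 had 0.0929 with quantile scaling, and MYC2 at D18 in long-day Col-0 had 0.056 and 0.0504. With no filter on low values MYC2 at D18 and VSP2 at D23 in long-day Col-0, AOS at D23 in short days, AOS at D13 and JAZ10 at D23 between day lengths and JAZ10 at D23 with the label tcx5/6 were not called (0.0503 to 0.0598).

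A wider list of 64 jasmonate genes, 58 of them measured above the filter, was read by role. From D13 to the last day 29 rose and 8 fell in long-day Col-0, 36 rose and 5 fell in short days, and 38 rose and 3 fell in the libraries labelled tcx5/6. Of all genes tested, 34.0% were called higher and 35.8% lower in long-day Col-0, 34.0% and 36.5% in short days, and 30.1% and 33.9% with the label tcx5/6. The counts by role below are to be read against the same shares. The median log2 difference was 0.56, 1.55 and 1.34 (1.33 with genes at 0 set at their bound of 3 reads), beside -0.01, -0.06 and -0.03 over all genes tested. With each short-day group as 1 library the short-day counts were 27 and 2. At D30 against D23 in short days 29 rose and 7 fell, beside 14.9% and 10.6% of all genes (8 and 1 as 1 library; 27 and 4 without D30 replicate 1).

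**Figure D4:**
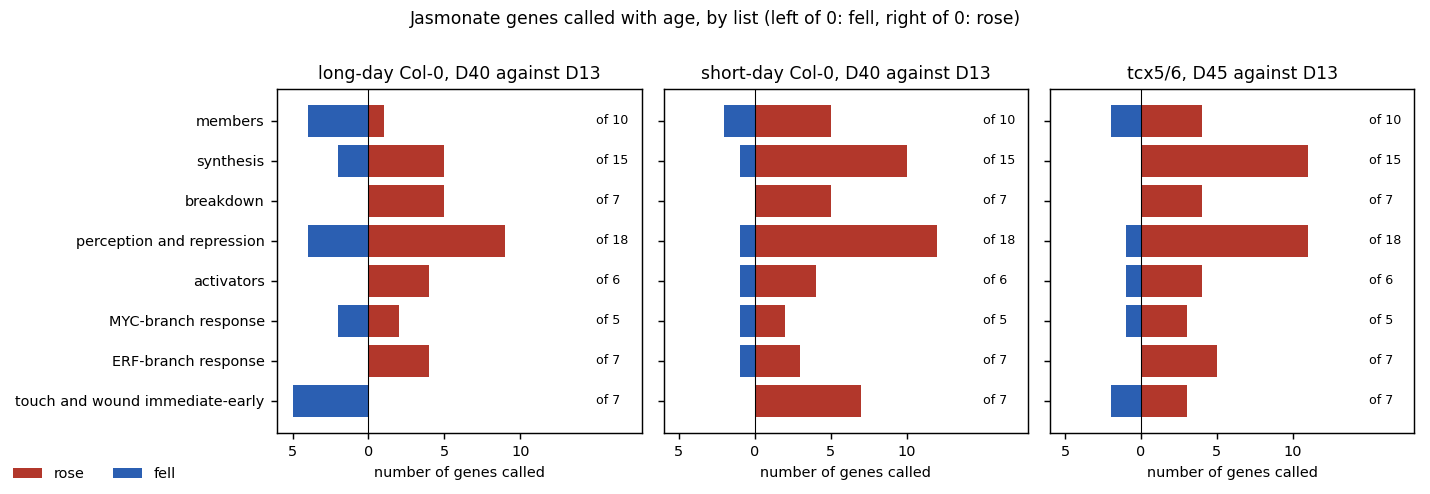
Number of genes called higher (red, right of 0) and lower (blue, left of 0) from D13 to the last day, by list (vertical axis) and series (panels), with the number measured at the right (members are the 10 genes). In the touch and wound list 5 of 7 fell in long-day Col-0 and 7 of 7 rose in short days.

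Of 15 further synthesis genes, 10 rose and 1 fell in short days (7 and 0 with each short-day group as 1 library), 11 and 0 with the label tcx5/6, and 5 and 2 in long-day Col-0. KAT2, the peroxisomal thiolase that shortens the side chain, rose in all 3 series, from 5305 ± 564 to 44930 ± 21731 in long-day Col-0 (log2 2.97 ± 0.19, limma adjusted p = 3.39e-16), from 3099 ± 49.7 to 22636 ± 778 in short days, and, at a lower level, from 1880 ± 67.3 to 11128 ± 1932 with the label tcx5/6. LOX4, another lipoxygenase, went from 270 ± 14.6 to 31243 ± 385 in short days (log2 6.85 ± 0.84, limma adjusted p = 5.33e-09). OPCL1, which activates the OPR3 product with coenzyme A, went from 1329 ± 95.1 to 17994 ± 313 in short days, then from 249 ± 15.6 to 3262 ± 60.6 in the libraries labelled tcx5/6. ACX1, the acyl-CoA oxidase of the pathway, rose in long-day Col-0 (1657 ± 60.1 to 12459 ± 10033) and short days (1380 ± 74.2 to 5106 ± 313). PXA1, which imports the precursor into peroxisomes, and JAR1, which joins jasmonate to isoleucine, rose in long-day Col-0 by 1.64 ± 0.15 and 0.57 ± 0.11 on the log2 scale (limma adjusted p = 7.57e-12 and 2.62e-05). With the label tcx5/6, LOX6 rose by 1.16 ± 0.13 and AOC1, an allene oxide cyclase with near-identical neighbours, by 3.87 ± 0.49 (limma adjusted p = 1.11e-09 and 1.67e-08).

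Breakdown genes rose in 5 of 7 in long-day Col-0, 5 of 7 in short days (4 with each short-day group as 1 library) and 4 of 7 in the libraries labelled tcx5/6, and 0 fell. JOX3, a jasmonate oxygenase, went from 3.54 ± 3.52 to 2121 ± 290 in long-day Col-0 (log2 9.13 ± 1.03, limma adjusted p = 8.97e-10) and from 3.23 ± 2.37 to 223 ± 52.3 in short days. ST2A, a hydroxyjasmonate sulfotransferase, rose in all 3 series, from 9.83 ± 10.2 to 407 ± 128 in long-day Col-0, from 1.47 ± 2.54 to 38.5 ± 22.8 in short days, and, with the label tcx5/6, from 0.686 ± 1.19 to 277 ± 134. IAR3, an amidohydrolase that cleaves jasmonoyl-isoleucine, rose in all 3 series, most in short days (447 ± 51.3 to 9353 ± 101, log2 4.39 ± 0.30, limma adjusted p = 3.31e-15). ILL6, a related hydrolase, rose in short days and in the libraries labelled tcx5/6 (log2 2.52 ± 0.38 and 1.70 ± 0.38), JOX4 rose in long-day Col-0 (log2 6.57 ± 1.15) and JOX2 in the libraries labelled tcx5/6 (log2 5.61 ± 0.66). CYP94B3 and CYP94C1 were not called over D13 to D40 in long-day Col-0, and JOX3, JOX4, ST2A and IAR3 were.

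Among perception and repression genes, 9 of 18 rose and 4 fell in long-day Col-0, 12 and 1 in short days (9 and 1 with each short-day group as 1 library), and 11 and 1 in the libraries labelled tcx5/6. COI1, the receptor F-box protein, rose from 636 ± 33.1 to 1316 ± 69.6 in long-day Col-0 (log2 1.05 ± 0.12, limma adjusted p = 5.1e-10) and from 754 ± 171 to 1396 ± 39.2 in the libraries labelled tcx5/6. JAZ11 rose in long-day Col-0 (186 ± 19.4 to 1260 ± 306) and short days (215 ± 49.8 to 633 ± 84.0), JAZ12 in long-day Col-0 (1645 ± 167 to 3791 ± 919) and in the libraries labelled tcx5/6 (1211 ± 145 to 3437 ± 443), and JAZ6 in short days (987 ± 33.1 to 7090 ± 341) and in the libraries labelled tcx5/6 (442 ± 101 to 2128 ± 825). JAZ7 went from 5.99 ± 5.22 to 6110 ± 251 in short days (log2 10.36 ± 1.29, limma adjusted p = 7.94e-09). JAM3, a helix-loop-helix repressor, rose in long-day Col-0 (log2 1.27 ± 0.16). JAT1, a jasmonate transporter, was at 0 at the last day in short days and in the libraries labelled tcx5/6, at 48.4 ± 8.35 and 77.1 ± 11.8 at D13.

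Activators rose in 4 of 6 genes in each series. MYC3, a close relative of MYC2, rose in all 3 (1111 ± 151 to 3922 ± 914, 1299 ± 64.0 to 2651 ± 347, and 758 ± 139 to 2711 ± 80.1, in the order long-day Col-0, short days and labelled tcx5/6), with log2 differences of 1.80 ± 0.13, 1.02 ± 0.13 and 1.85 ± 0.13. The NAC factors ANAC019 and ANAC055, which act downstream of MYC2, rose in all 3 series, ANAC019 from 88.1 ± 43.2 to 10972 ± 8236 in long-day Col-0 and from 5.72 ± 6.60 to 5553 ± 366 in short days, and ANAC055 from 60.4 ± 54.7 to 7103 ± 5408 and from 2.27 ± 3.93 to 5168 ± 329. MED25, a Mediator subunit that binds MYC2, rose in long-day Col-0 (log2 1.26 ± 0.18). MYC4 fell in short days (376 ± 38.1 to 125 ± 50.5), and MYC5 was at 0 at D45 in the libraries labelled tcx5/6 beside a mean of 28.7 at D13.

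Response genes of the MYC branch were mixed, with 2 of 5 rising and 2 falling in long-day Col-0, 2 and 1 in short days, and 3 and 1 in the libraries labelled tcx5/6. The 3 short-day calls, TAT3, NATA1 and JR1, were lost with each short-day group as 1 library (adjusted p = 0.0849, 0.184 and 0.394). TAT3, a tyrosine aminotransferase, rose from 19.2 ± 27.9 to 5127 ± 4380 in long-day Col-0 (log2 8.43 ± 1.25, limma adjusted p = 2.42e-07) and from 99.0 ± 13.1 to 4899 ± 422 in short days, and it was 0 at D13 and 62.3 ± 84.4 at D45 in the libraries labelled tcx5/6. NATA1, an acetyltransferase, rose in all 3 series with every library counted. JR1 fell in all 3 in that fit, from 421 ± 26.0 to 95.1 ± 17.1 in long-day Col-0 (log2 -2.15 ± 0.42, limma adjusted p = 2.47e-05), and CLH1, a chlorophyllase, fell in long-day Col-0 (319 ± 68.2 to 46.7 ± 46.0). CORI3 rose in the libraries labelled tcx5/6 (91.6 ± 34.8 to 3035 ± 2026). In the ERF branch, which jasmonate shares with ethylene, 4 of 7, 3 of 7 and 5 of 7 genes rose, and 1 fell, PDF1.3 in short days (51.4 ± 17.8 to 4.71 ± 4.74), a call lost with each short-day group as 1 library (adjusted p = 0.187). ERF1 rose from 0.844 ± 1.46 to 166 ± 118 in long-day Col-0 and from 1.96 ± 3.39 to 396 ± 39.3 in short days, and was 0 at D13 and 28.3 ± 17.3 at D45 in the libraries labelled tcx5/6. HEL, a pathogenesis-related chitin-binding protein, rose in all 3 series, in long-day Col-0 70.2 ± 47.1 to 10362 ± 8239 (log2 7.13 ± 0.70, limma adjusted p = 3.5e-11). CHI-B, a basic chitinase, rose in long-day Col-0 (log2 5.88 ± 0.91) and from 0 to 80.4 ± 37.7 in short days. ORA59 rose in long-day Col-0 (0.555 ± 0.961 to 36.0 ± 24.1, the first at or under 3 reads over the group) and from 0 to 167 ± 204 in the libraries labelled tcx5/6, where PDF1.2, a defensin marker, went from 0 to 18.5 ± 16.1.

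A list of 7 touch and wound immediate-early genes was read beside the 10 genes. Its summed level was 130036, 88550 and 34298 in long-day Col-0 at D13. AOS, OPR3, JAZ1, JAZ10, MYC2, CYP94B3 and CYP94C1 had the same order of these 3 libraries, LOX2 had the reverse order, and VSP1 and VSP2 were highest in replicate 3. In short days the sum was 17353 to 18016 at D18, 2099 to 2197 at D23, 110242 to 110797 at D30 and 178029 to 182864 at D40. At D23 against D18 in short days 7 of 7 touch genes fell (2 with each group as 1 library), against 16.7% of all genes, while LOX2, AOS and OPR3 were called higher. With the label tcx5/6 the sum was 841 to 5728 at all days, and at D30 it was highest in replicate 2, while the 10 genes were highest in replicate 1. WRKY40, an early stress transcription factor, was 18624, 8281 and 339 in long-day Col-0 at D13, 25.6 to 46.6 in short days at D23 and 19214 to 19541 at D30, and 11.4 to 230 in the libraries labelled tcx5/6. TCH4, a cell wall enzyme induced by touch, was 30.8 to 51.7 in short days at D23 and 19183 to 19882 at D30.

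From D13 to the last day, 7 of the 7 touch and wound genes rose in short days (7 also with each short-day group as 1 library), 5 fell and 0 rose in long-day Col-0, where JAZ1 rose, and 3 rose and 2 fell in the libraries labelled tcx5/6. The 5 falls were 3 without long-day D13 replicate 1, D13 replicate 2 or D40 replicate 2. ZAT10, a zinc finger repressor, went from 221 ± 12.5 to 34814 ± 605 in short days (log2 7.29 ± 0.83, limma adjusted p = 1.25e-09) and from 13.1 ± 18.4 to 588 ± 62.3 in the libraries labelled tcx5/6. CBF2, a cold-response factor, went from 11.6 ± 6.50 to 2008 ± 7.43 in short days and from 585 ± 397 to 79.0 ± 52.2 in long-day Col-0. TCH2, a calmodulin-like protein, went from 663 ± 69.4 to 5265 ± 241 in short days, from 4646 ± 2492 to a mean of 361 in long-day Col-0, and fell in the libraries labelled tcx5/6 (528 ± 203 to 190 ± 76.6), where TCH3 rose (31.2 ± 27.2 to 778 ± 174) and TCH4 fell (647 ± 110 to 62.0 ± 8.88). At D13, 7 of 7 were lower in the libraries labelled tcx5/6 than in long-day Col-0, and so were 28 of the 58 wider jasmonate genes, with 4 higher, against 23.4% of all genes called lower and 20.1% higher. With 1 library left out, 22 to 26 of the wider genes were lower and 3 to 4 higher. At D30 against D23 in short days 7 of 7 rose, against 14.9% of all genes (3 with each group as 1 library). Their part in the jasmonate values was not tested.

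Across the 15 group means of log2(value + 1), the 10 genes formed 45 pairs with a median Pearson r of 0.36. The r was above 0.8 in 10 pairs, and these were all the pairs among OPR3, MYC2, JAZ1, CYP94B3 and CYP94C1. The closest was OPR3 with MYC2 (r = 0.93). AOS and JAZ1 had r = 0.01, and JAZ1 and VSP2 had -0.33. These values describe 15 groups that share the late short-day step, and no test goes with them.

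Among 8181 genes with a symbol and a group mean of 100 or more, the most alike gene was JAZ7 for CYP94B3 (r = 0.99 over the 15 group means). JAZ7 was 0 in all 9 libraries labelled tcx5/6 of D13, D18 and D23, as CYP94B3 was, and 4644 to 4870 in short days at D30. ZF1 was most alike to JAZ1 (r = 0.98), RABH1c to OPR3 (0.94), AtIPCS1 to MYC2 (0.94), GRX480 to CYP94C1 (0.92), HSFC1 to AOS (0.89), ACR8 to JAZ10 (0.88), AL1 to VSP2 (0.86), AOC2 to LOX2 (0.85) and APT1 to VSP1 (0.72). For LOX2 the most alike gene, an allene oxide cyclase of the same pathway, had its highest group mean at D30 in the libraries labelled tcx5/6 (14574), the group where LOX2 was highest too.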

How the data were processed

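Polyadenylated RNA of first true leaves was sequenced without strand information. Per the submitters' processing notes, reads were trimmed with cutadapt and Trim Galore 0.6.6, aligned with STAR 2.7.1a and counted per gene with HTSeq 2.0, and the authors deposited 1 table of read coverage per gene, a signal divided by DESeq2 1.40.1 size factors. The genome build and the strand setting of the counter are not given in the sources used here. Dividing each value by the value of 1 read gave whole reads for 100.0% of values within 0.01. Libraries held 16824317 to 40252818 reads in genes. The counter assigned a further 45.95% to 48.2% of counted reads to no gene, and 0.111% to 0.238% were ambiguous. With the strand setting unknown, reads assigned to no gene need not lie outside genes. Floors of 3 reads cover counting error only.

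Differences were tested on log2(value + 1) with limma 3.58.1 (R 4.3.3, mean trend, all 15 groups in 1 fit) over 23493 genes with 10 or more in at least 3 libraries. A difference was called at an adjusted p (Benjamini-Hochberg, within a comparison) under 0.05. The test was also run on data simulated with 1 spread for all genes and groups. The real groups differed in spread, so that run does not show how the fit behaves here. Alternatives were edgeR 4.0.16 on the recovered reads (which called 16181 genes at D40 against D13 in long-day Col-0, 16431 in short days and 6199 at D30 against D23 in short days), TMM and quantile scaling, other pseudocounts, no filter, only the compared groups in the fit, the replicate number as a block, and each library left out. Counting each short-day group as 1 library was added after the data were seen. It leaves the short-day groups without replicates, so its p-values rest on the spread of the long-day libraries.

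The 10 genes and the wider lists were chosen with earlier results of these data known. The text names all 10 genes, and up to 4 called genes of each wider list by smallest adjusted p in each comparison of the last day with D13. It also names, for each of the 10, the most correlated other gene with a symbol and a group mean of 100 or more. Motifs were searched with Python 3.11.15 and Biopython 1.88.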

Additional observations from a re-analysis of the deposited data

Results flagged for a closer look

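The results here were singled out because an effect differed between groups by a test of the difference itself (a limma interaction term, adjusted over all genes tested). The change from D13 to D40, long minus short days on the log2 scale, was -2.89 for AOS (adjusted p = 1.7e-07), -4.64 for OPR3 (1.7e-07), -2.93 for JAZ1 (0.004), -4.79 for MYC2 (1.2e-05), -4.92 for VSP2 (0.0066) and -13.93 for CYP94B3 (3.7e-07). The CYP94B3 value rests on a short-day D13 group of 4 reads. With each short-day group as 1 library JAZ1 and VSP2 lost the call (0.148 and 0.14).

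The change from D13 to D30, labelled tcx5/6 minus long-day Col-0 on the log2 scale, was 1.60 for LOX2 (limma adjusted p = 0.0082), 2.25 for AOS (3.2e-05), 2.50 for OPR3 (0.0027), 3.89 for JAZ1 (0.0005), 2.60 for MYC2 (0.018) and 5.37 for VSP1 (0.0029). MYC2 lost the call in 5 settings, among them without Col-0 D13 replicate 1 (1.62, limma adjusted p = 0.118). LOX2 lost it without tcx5/6 D30 replicate 1 (limma adjusted p = 0.0542). OPR3 and VSP1 lost it with only the compared groups in the fit (limma adjusted p = 0.118 and 0.0743). The summed level of the 7 touch and wound genes was 34298 to 130036 in the Col-0 D13 libraries of this contrast and 975 to 1805 in those labelled tcx5/6, and its part in the values was not tested. Groups of 3 libraries were too small for a search for single outlying libraries.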

How the results depend on the processing

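Of 260 differences (10 genes in 26 comparisons), 101 were called, 41 of them in every alternative run, and 60 lost the call in at least 1. No called difference changed sign. With only the compared groups in the fit, called differences numbered 3 in place of 5 for long-day Col-0 D40 against D13, 6 in place of 12 for its consecutive days, 32 in place of 15 for short-day consecutive days, 6 in place of 11 for those labelled tcx5/6, 9 in place of 14 for tcx5/6 against Col-0 by day and 3 in place of 6 for the D30 change; the cause was not tested. With each short-day group as 1 library, which leaves fewer samples, they numbered 4 in place of 7 for short-day D40 against D13, 3 in place of 15 for its consecutive days and 10 in place of 19 for long against short days. Leaving out 1 library gave 4 to 6 for long-day D40 against D13, 9 to 16 for its consecutive days, 7 to 7 and 13 to 15 for short days, 4 to 7 and 8 to 15 for the label tcx5/6, 17 to 23 for day length, 12 to 15 for tcx5/6 against Col-0, 6 to 6 for the age change and 4 to 6 for the D30 change. The replicate numbers do not pair the samples (median correlation of deviations 0.0001, 6 of 315 pairs over 0.1), and the fit with the replicate block lost 0 calls and gained 3. Quantile scaling moved the share of higher calls from 58.4% to 39.2% for short-day D30 against D23, from 44.6% to 56.9% for the age change, from 42.5% to 56.2% and 42.1% to 57.5% for day length at D30 and D40, and from 43.9% to 54.2% for short-day D23 against D18, and changed the sign of no called difference of the 10 genes. Values under about 10 reads, as for VSP1 and early CYP94B3, are limited by depth.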
